A study of Arabidopsis thaliana with 2 samples.

Results

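The genes described here are 30 nuclear genes of Arabidopsis thaliana for subunits of photosystem II, photosystem I and the chloroplast ATP synthase and for the electron carriers that connect these complexes. They were chosen by locus ID from the names of the gene families (PSB, PSA, PET, ATP synthase, ferredoxin and FNR) out of 25224 genes with exon values. Members fall into the oxygen-evolving complex (5 genes), small subunits of photosystem II (4 genes), photosystem I (12 genes), electron carriers (7 genes) and the ATP synthase (2 genes). Locus and symbol of all 30 matched the reference annotation, and the 30 genes lie on chromosomes 1 (14 genes), 2 (3 genes), 3 (2 genes), 4 (8 genes) and 5 (3 genes).

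Both libraries came from wild type (WT) seedlings, 13 days old, raised on half-strength MS medium under 16 h of light and 8 h of darkness. In each case the material was the membrane bound polysome (MBP) fraction, the ribosome-carrying RNA that sediments with microsomal membranes, from whole seedlings. MBP ribo-seq measured fragments shielded from RNase I by ribosomes, of 23 to 35 nt by the labels and with a slightly higher lower limit by the methods (depth 38438723 reads), and MBP mRNA-seq measured the transcripts of the same fraction (66958223 reads). There was 1 library per assay, so no value given here has a replicate check, no test between the assays was possible and every interval covers counting error only.

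In oxygenic photosynthesis, photosystem II takes electrons from water, and the cytochrome b6f complex, plastocyanin, photosystem I and ferredoxin pass them on to NADP+, while the proton gradient built up on the way drives the ATP synthase. The reaction centre proteins of both photosystems are encoded in the plastid. The subunits described here are made on cytosolic ribosomes as precursors with an N-terminal transit peptide, which directs them into the chloroplast. Photosynthetic transcripts of this kind are abundant in green tissue. As a check of the tissue, the leaf genes RBCS1A (9535 RPM in ribo-seq against 13066 RPM in mRNA-seq) and RCA (6122 against 8530 RPM) and the root gene PYK10 (171 against 219.8 RPM) were read in both libraries. The root aquaporin gene TIP2;3 reached only 0.390 RPM in ribo-seq against 0.254 RPM in mRNA-seq. Since whole seedlings were used, a low level cannot be told apart as fewer cells of a type or less RNA per cell.

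The starts of the coding sequences shared a feature. The choice of genes did not use sequence, but all 30 encode precursors with a transit peptide, and 8 pairs of them are copies. Other genes for imported plastid proteins were not compared for this feature. In 29 of the 30 genes the second codon was GCN (N for any base), an alanine codon, against 24.9% of the genes with a mean exon value of at least 1 RPM. The exception was PSAF, with TCG. The first 30 coding bases are shown, with the second codon in capitals, for the genes with the highest (ATPD) and the lowest (PSAL) ribo-seq to mRNA-seq ratio, for PSBR, whose ribo-seq value was the highest, for a pair of ferredoxin copies and for the exception.
ATPD: atgGCGtctcttcaacaaactctattctct
PSAL: atgGCAgcgagtgcatctccaatggcgagc
PSBR: atgGCTgcttcagtgatgctatcttcggtg
FD1: atgGCTtccactgctctctccagcgcaatc
FD2: atgGCTtccactgctctctcaagcgccatc
PSAF: atgTCGctcactatcccggcgaatctcgtt
These sequences are from RefSeq (build TAIR10.1, written 5′ to 3′ on the coding strand), at chr4:6100799-6100828 (+) for ATPD, chr4:7521469-7521498 (+) for PSAL, chr1:29736085-29736114 (+) for PSBR, chr1:3664445-3664474 (+) for FD1, chr1:22444565-22444594 (+) for FD2 and chr1:11215910-11215939 (−) for PSAF. All lie in the first coding exon. An A stood at the third position before the start codon in 21 genes (70.0%, against 49.0% of 16285 genes), and A or G in 27 genes, against 74.6%. The coding sequences were short, with a median of 558 bp (351 to 1122 bp) against 1209 bp over all genes past the filter, and 11 of the 30 had a single coding exon. G or C at the third codon position had a median share of 50.5% (37.7 to 59.7%), against 41.6%. These shares are descriptions of the annotated sequence, and their part in the values that follow was not tested.

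To ask how densely ribosomes covered these transcripts on MBPs, the exon value of each gene in ribo-seq was set against that in mRNA-seq. Values are RPM, reads scaled to the size of the library, and the ratio used here is log2((ribo-seq RPM + 1)/(mRNA-seq RPM + 1)), so a positive ratio means a higher value in ribo-seq. Over the 16879 genes with a mean exon value of at least 1 RPM the median ratio was −0.99 (quartiles −1.53 and −0.52). The 30 genes had a median ratio of −0.07, which was 0.92 above that of all genes, or 1.89-fold. All 30 lay above the median of all genes, beside a background of 50.0%, at percentiles of 63.3 to 99.3. By a rule of more than 2-fold, 9 of the 30 lay above the median, beside 5.59% of all genes, and 0 lay below it, beside 11.8% of all genes.

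The difference depended on the genes taken for comparison and on the pseudocount. The median ratio was −0.67 over the 6862 genes with coding sequences of 351 to 1122 bp. By median, the 30 genes were 0.60 higher, and 1 lay more than 2-fold above, beside 2.43% of those genes. PSAL (ratio −0.74) lay below that median. Over the 1143 genes with a mean exon value of at least 100 RPM the median ratio was −0.57. By median, the 30 genes were 0.50 higher, again with 1 gene more than 2-fold above, beside 2.27%. PSAL and PSBO1 (ratio −0.63) lay below the median of these genes. With a pseudocount of 0.1 the count was 19, beside 8.91% of all genes, and with 5 it was 1, beside 0.995%. The part of coding length and of level in the difference was not tested. Scaling also sets where a ratio of 0 lies: of the ribo-seq reads, 19298409 fell on exons of nuclear genes, and of the mRNA-seq reads 56098894. Rescaled to the sum over nuclear exons, the median ratio of all genes was −0.36, so the values of single genes are best read relative to the median.

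**Figure D1:**
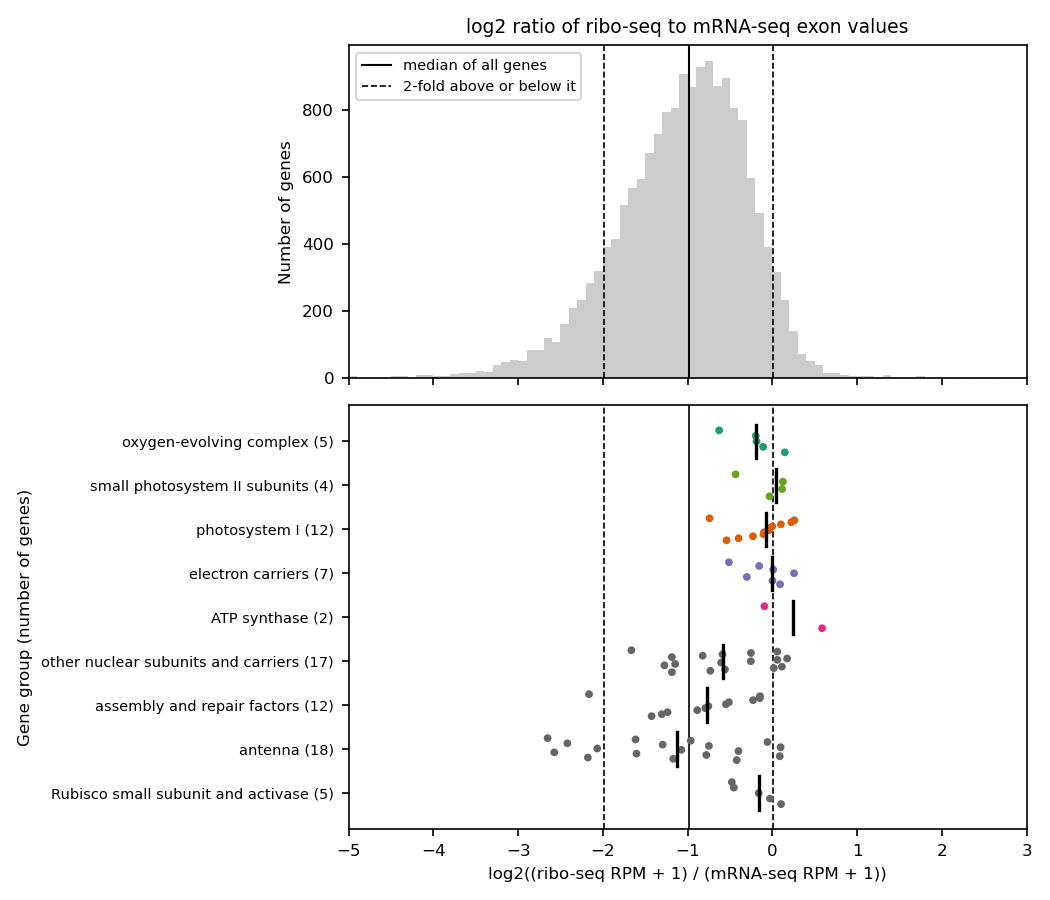
Upper panel, number of genes (vertical axis) by ratio of exon values on the log2 scale, ribo-seq over mRNA-seq (horizontal axis), for the 16879 genes past the filter, with ratios beyond the axis limits drawn in the end bins. Lower panel, the same ratio for each gene (points) of the groups named at the left with their median (short bar); the solid line is the median of all genes, −0.99, and dashed lines lie 2-fold above and below it. All points of the upper 5 groups, the 30 photosystem, carrier and ATP synthase genes, lie to the right of the solid line, while the antenna genes spread from −2.65 to 0.10.

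Within the 30 genes the assays ranked the transcripts much alike. Exon values ran from 87.1 to 2598 RPM in ribo-seq and from 108 to 2394 RPM in mRNA-seq, with Spearman's rho of 0.95 across the 30 genes (0.93 per coding length) and 0.89 across all genes past the filter. These correlations describe genes measured in the same pair of libraries, which are not independent replicates. In sum the 30 genes held 5.18% of the exon values of all genes in ribo-seq and 3.28% in mRNA-seq. Per kb of coding sequence, 25 were among the 100 highest genes in ribo-seq and 22 in mRNA-seq. Read numbers were 3348 to 99866 in ribo-seq and 7204 to 160315 in mRNA-seq, so the counting error of a ratio was at most 0.03.

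**Figure D2:**
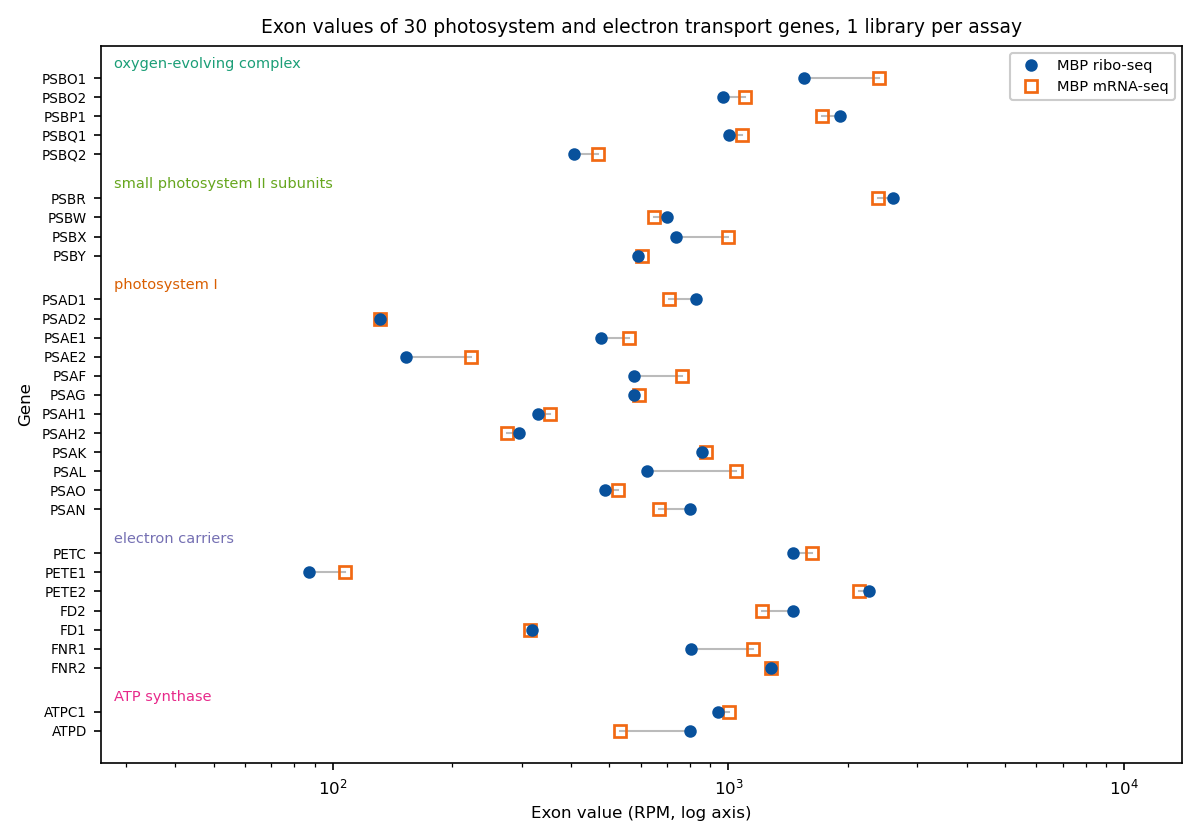
Exon value (horizontal log axis, RPM) of each of the 30 genes (vertical axis, grouped by complex) in MBP ribo-seq (filled circles) and MBP mRNA-seq (open squares), 1 library each, with no error bars because there are no replicates. In 11 genes the circle lies to the right of the square, beside 5.80% of all genes past the filter with a higher value in ribo-seq. The widest such gap is at ATPD (801 RPM in ribo-seq against 533 RPM in mRNA-seq). In 19 genes the circle lies to the left, with the widest gap at PSAL (623 against 1042 RPM). Where circle and square would meet is set by the scaling of the libraries.

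The oxygen-evolving complex is the set of lumenal proteins that shield and stabilise the manganese cluster of photosystem II. PSBO, the manganese-stabilising protein, has a pair of genes, and PSBO1 (AT5G66570) had 1548.5 RPM in ribo-seq against 2394 RPM in mRNA-seq, a ratio of −0.63. PSBO2 (AT3G50820) had 968 RPM in ribo-seq against 1102 RPM in mRNA-seq, a ratio of −0.19. PSBO1 was thus the more abundant copy in both assays and had the lower ratio. PSBP1 (AT1G06680), for a protein needed for calcium and chloride retention at the cluster, had 1912 RPM in ribo-seq against 1727 RPM in mRNA-seq and was the only gene of this group more than 2-fold above the median of all genes (ratio 0.15). Of the PSBQ genes, which encode a further lumenal subunit, PSBQ1 (AT4G21280) had 1005 RPM in ribo-seq against 1085 RPM in mRNA-seq. PSBQ2 (AT4G05180) had 407 RPM in ribo-seq against 467 RPM in mRNA-seq, with a ratio (−0.20) close to that of PSBQ1 (−0.11).

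Of the small photosystem II subunits, PSBR (AT1G79040), a protein that assists the binding of the oxygen-evolving subunits, had the highest ribo-seq value of all 30 genes, 2598 RPM, against 2383 RPM in mRNA-seq. PSBW (AT2G30570), which takes part in the assembly of photosystem II with its antenna, had 700.4 RPM in ribo-seq against 647 RPM in mRNA-seq. Both lay just over 2-fold above the median of all genes, with ratios of 0.12 and 0.11. PSBX (AT2G06520), a small membrane protein of the core, differed from them, with 739 RPM in ribo-seq against 999 RPM in mRNA-seq and a ratio of −0.43. PSBY (AT1G67740), another small membrane protein, had 590.0 RPM in ribo-seq against 604 RPM in mRNA-seq, a ratio of −0.03.

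Photosystem I showed the lowest ratio of the 30 genes. PSAL (AT4G12800), a membrane subunit at the docking side for mobile antenna, had 623 RPM in ribo-seq against 1042 RPM in mRNA-seq. Its ratio of −0.74 (95% counting interval −0.76 to −0.72) was still 0.25 above the median of all genes. It lay below the medians of the genes of like coding length (−0.67) and of those with at least 100 RPM (−0.57). PSAO (AT1G08380), a neighbour of PSAL in the complex, had 488 RPM in ribo-seq against 524 RPM in mRNA-seq, a ratio of −0.10. PSAH, which is also needed for docking of mobile antenna, has a pair of genes with nearly even levels. PSAH1 (AT3G16140) had 330 RPM in ribo-seq against 353 RPM in mRNA-seq (ratio −0.10), and PSAH2 (AT1G52230) 295 RPM in ribo-seq against 275 RPM in mRNA-seq (ratio 0.10).

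The stromal side of photosystem I carries PSAD and PSAE, which receive ferredoxin. PSAD1 (AT4G02770) had 826 RPM in ribo-seq against 707 RPM in mRNA-seq, with a ratio of 0.22, and PSAD2 (AT1G03130) had 131 RPM in both assays. PSAE1 (AT4G28750) had 477 RPM in ribo-seq against 560 RPM in mRNA-seq, a ratio of −0.23. PSAE2 (AT2G20260) had 153 RPM in ribo-seq against 223 RPM in mRNA-seq, a ratio of −0.54. In each pair the more abundant copy had the higher ratio. On the other side, PSAF (AT1G31330) and PSAN (AT5G64040) serve the docking of plastocyanin. PSAF had 578 RPM in ribo-seq against 763 RPM in mRNA-seq (ratio −0.40), whereas PSAN, the only fully lumenal subunit, had 799 RPM in ribo-seq against 667 RPM in mRNA-seq (ratio 0.26). PSAG (AT1G55670) and PSAK (AT1G30380), related membrane proteins at the antenna side, had ratios of −0.04 and −0.03. Their exon values were 576 RPM for PSAG and 856 RPM for PSAK in ribo-seq, against 593 RPM for PSAG and 877 RPM for PSAK in mRNA-seq. In the annotation PSAE1 and PSAG overlap a gene on the opposite strand (AT4G28755 and AT1G55673) that has no exon value in the tables. Use of strand in the read assignment is not stated, so reads of these partners cannot be told apart from those of PSAE1 and PSAG.

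The carriers move electrons between the complexes and on to NADP+. PETC (AT4G03280), the Rieske iron-sulphur protein of the cytochrome b6f complex, had 1456 RPM in ribo-seq against 1622 RPM in mRNA-seq, a ratio of −0.16. Plastocyanin, the lumenal copper protein that reduces photosystem I, was represented almost wholly by PETE2 (AT1G20340), with 2270.1 RPM in ribo-seq against 2131 RPM in mRNA-seq. PETE1 (AT1G76100) had the lowest level of the 30 genes, 87.1 RPM in ribo-seq against 108 RPM in mRNA-seq. The ratios of the plastocyanin genes were 0.09 for PETE2 and −0.30 for PETE1. Ferredoxin, the iron-sulphur carrier that leaves photosystem I on the stromal side, showed the same order of copies. FD2 (AT1G60950) had 1453 RPM in ribo-seq against 1217 RPM in mRNA-seq (ratio 0.26), and FD1 (AT1G10960) 318 RPM in ribo-seq against 316 RPM in mRNA-seq (ratio 0.01). Of the leaf ferredoxin-NADP+ oxidoreductases, which transfer the electrons to NADP+, FNR1 (AT5G66190) had 806 RPM in ribo-seq against 1150.2 RPM in mRNA-seq (ratio −0.51). FNR2 (AT1G20020) had 1283 RPM in ribo-seq against 1282 RPM in mRNA-seq, a ratio of 0.00.

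An ATP synthase gene, ATPD, gave the highest ratio of the set, while the other, ATPC1, lay near the middle of it. ATPD (AT4G09650), for the delta subunit that joins the catalytic head to the peripheral stalk, had 801 RPM in ribo-seq against 533 RPM in mRNA-seq. Its ratio of 0.59 (95% counting interval 0.57 to 0.61) exceeded those of 99.3% of all genes past the filter. ATPC1 (AT4G04640), for the gamma subunit that turns inside the head, had 942 RPM in ribo-seq against 1006 RPM in mRNA-seq, a ratio of −0.09. The genes more than 2-fold above the median were PSBP1, PSBR, PSBW, PSAD1, PSAH2, PSAN, PETE2, FD2 and ATPD. Of these PETE2 was closest to the limit of 1 (log2) above the median, at 1.08, and just under it were FD1 (0.998), FNR2 (0.99) and PSAD2 (0.99). Grouped by where the protein works, the median ratio was −0.15 for 8 lumenal, −0.07 for 12 membrane and 0.00 for 10 stromal proteins, with overlapping ranges.

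Levels of different subunits were compared as RPM per kb of coding sequence, with the copies of a subunit summed. For the oxygen-evolving complex these levels were 2522 for PSBO, 2414 for PSBP and 2077 for PSBQ in ribo-seq, against 3504 for PSBO, 2180 for PSBP and 2281 for PSBQ in mRNA-seq. The highest subunit exceeded the lowest 1.21-fold in ribo-seq and 1.61-fold in mRNA-seq, so the levels lay closer together in ribo-seq. In photosystem I the reverse held with copies summed, with 2.51-fold in ribo-seq against 1.95-fold in mRNA-seq, but not with each gene on its own, with 10.2-fold in ribo-seq against 10.4-fold in mRNA-seq. PSAK was highest of the 9 photosystem I subunits and PSAF lowest in both assays, at 2179 for PSAK and 868 for PSAF in ribo-seq, and 2232 for PSAK and 1145 for PSAF in mRNA-seq. The order in between differed: PSAL was 8th in ribo-seq (943) and 3rd in mRNA-seq (1578), and PSAN 3rd in ribo-seq (1464) and 8th in mRNA-seq (1223). Spearman's rho over the 9 subunits was 0.45, as a description of subunits that share both libraries.

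Among the small photosystem II subunits the order was the same in both assays, with PSBR highest (6142 RPM per kb in ribo-seq and 5633 in mRNA-seq) and PSBY lowest (1035 in ribo-seq and 1060 in mRNA-seq). The carriers also kept their order, from plastocyanin (4673 RPM per kb in ribo-seq and 4437 in mRNA-seq) through ferredoxin (3962 and 3430) and PETC (2110 and 2351) to FNR (1900 and 2217). For the ATP synthase the order turned round, with ATPD at 1136 and ATPC1 at 840 RPM per kb in ribo-seq, and ATPD at 756 and ATPC1 at 896 in mRNA-seq. Such levels are sums of reads over a coding sequence and do not correct for uneven coverage along it.

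**Figure D3:**
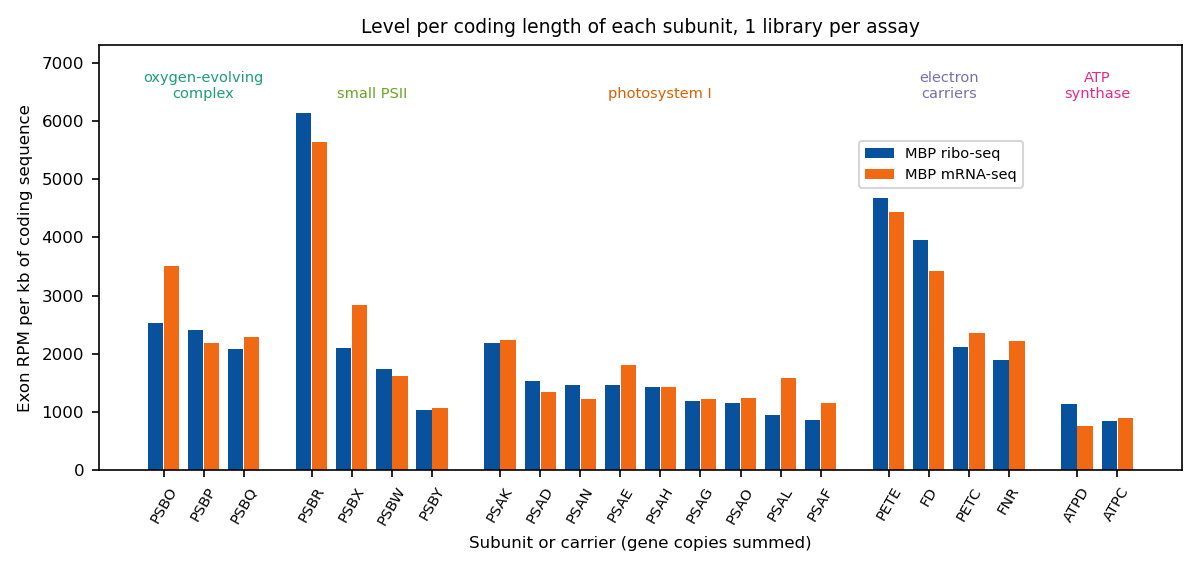
Exon RPM per kb of coding sequence (vertical axis, linear from 0) of each subunit or carrier (horizontal axis, copies summed) in MBP ribo-seq (left bars) and MBP mRNA-seq (right bars), 1 library each. PSBR is highest in both assays, and PSAL shows the widest gap of the photosystem I subunits, with 943 in ribo-seq and 1578 in mRNA-seq.

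The 8 pairs of copies allowed a comparison of ratios between genes for the same subunit or carrier. The coding sequences of a pair were 74.6 to 88.0% identical, and their longest identical run was 17 to 35 bases. At most 1.02% of the stretches of 30 bases of a copy also occurred in its partner. Of the stretches of PSAE1, however, 57.8% also occurred in a gene outside its pair, on either strand. The counting interval of the PSAE difference does not cover reads of such a gene. The widest gap was that of FNR1 minus FNR2, −0.51 (95% counting interval −0.54 to −0.49). PSBO1 minus PSBO2 was −0.44 (−0.46 to −0.42) and PETE1 minus PETE2 was −0.39 (−0.46 to −0.34). Smaller differences were −0.25 (−0.28 to −0.21) for FD1 minus FD2 and −0.20 (−0.25 to −0.15) for PSAH1 minus PSAH2. The first-named copy had the higher ratio in the other three pairs, by 0.31 (0.26 to 0.36) for PSAE, 0.22 (0.17 to 0.28) for PSAD and 0.09 (0.05 to 0.12) for PSBQ. All 8 intervals left out 0, but they hold counting error only, and the spread between biological samples is unknown. With UTR values added to the exon values the PSAH difference was −0.067, the FD difference −0.16, the PETE difference −0.25, the PSAD difference 0.14 and the PSBQ difference 0.17.

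The share of a copy in its pair differed between the assays by 1.09 to 8.75 percentage points. Per kb, PSBO1 made up 61.5% of PSBO in ribo-seq and 68.4% in mRNA-seq, and FNR1 39.2% of FNR in ribo-seq and 47.9% in mRNA-seq. PETE2 exceeded PETE1 26.7-fold in ribo-seq and 20.3-fold in mRNA-seq, and FD2 exceeded FD1 4.57-fold in ribo-seq and 3.85-fold in mRNA-seq. PSAD1 made up 86.0% of PSAD in ribo-seq and 84.1% in mRNA-seq. In 6 of the 8 pairs the more abundant copy of the mRNA-seq library also had the higher ratio, the exceptions being PSBO and PSAH.

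**Figure D4:**
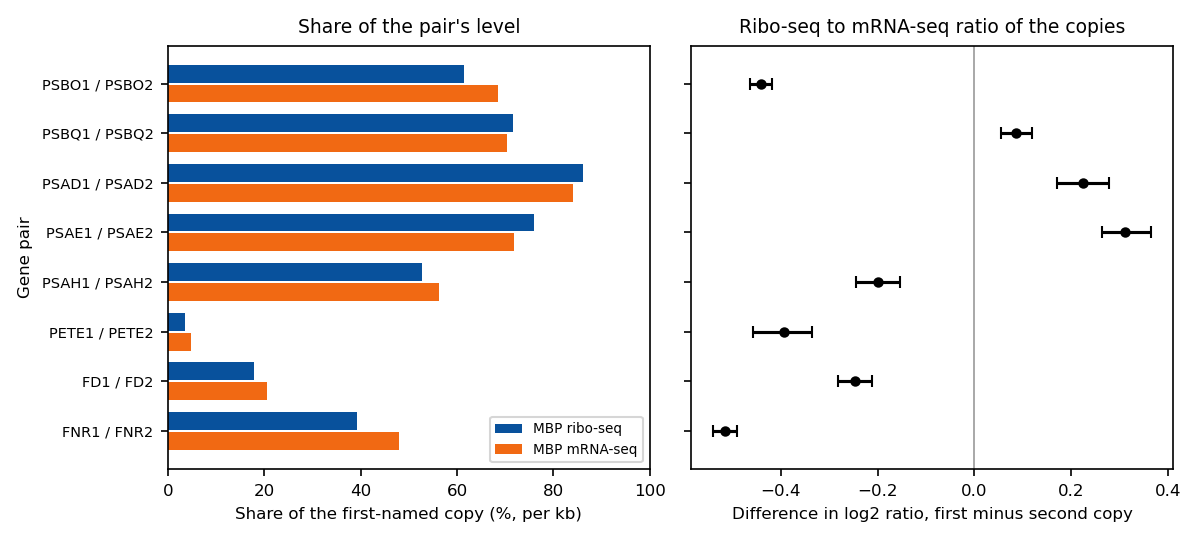
Left panel, share of the first-named copy in the level of its pair (horizontal axis, percent, per kb of coding sequence) in MBP ribo-seq (upper bars) and MBP mRNA-seq (lower bars). Right panel, difference between the log2 ratios of first and second copy, with bars for the 95% counting interval; FNR (−0.51) and PSBO (−0.44) lie farthest to the left of 0, and PSAE (0.31) farthest to the right.

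Footprints on these transcripts lay almost wholly in coding sequence. Exons took 99.7% of the values assigned to the 30 genes in ribo-seq (Wilson 95% interval 99.66 to 99.68), against 82.6% in mRNA-seq (82.5 to 82.6). Over all genes exons also took most of the values, 95.7% in ribo-seq and 83.9% in mRNA-seq. The share of 5′ UTRs was 0.264% in ribo-seq against 2.85% in mRNA-seq. The 3′ UTRs took 0.0677% (679 reads) in ribo-seq, against 14.5% (324199 reads) in mRNA-seq. Summed over the 1143 genes with a mean exon value of at least 100 RPM, exons took 94.7% in ribo-seq and 84.8% in mRNA-seq. Their 5′ UTRs held 0.732% in ribo-seq and 3.08% in mRNA-seq, and their 3′ UTRs 4.52% and 12.1%. Such sums do not describe a typical gene, for which the occupancy per gene is given below. PETE2 may serve as an example, with 1.53 RPM in the 3′ UTR in ribo-seq against 741 RPM in mRNA-seq. ATPD had 0.234 RPM in the 5′ UTR in ribo-seq against 11.8 RPM in mRNA-seq. The highest 5′ UTR share in ribo-seq was that of PSAE1, 0.992% (184 reads), against 3.55% in mRNA-seq.

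UTR occupancy, the log2 ratio of UTR to exon values in ribo-seq minus the same in mRNA-seq (pseudocount 0.5), had a median of −3.20 for the 5′ UTR of the 30 genes (−5.30 for PSBW to −1.29 for PETE1), against −0.87 over 6977 genes. For the 3′ UTR it was −6.70 (−8.60 for PETE2 to −4.82 for PSAD2), against −1.93 over 11168 genes. Through the pseudocount, occupancy depends on the level of a gene, most where reads are few. PETE1 had 5 ribo-seq reads in its 5′ UTR and PSAD2 had 3 in its 3′ UTR, so the places of such genes in the range depend on the pseudocount. Against genes with a mean exon value of at least 100 RPM, chosen as a comparison after seeing the data, 5′ UTR occupancy had a median of −2.28 (1022 genes), and 26 of the 30 genes lay below it. The corresponding 3′ median was −5.09 (1133 genes), and 29 of the 30 genes lay below it. Second isoforms of PSBP1, PETC and FNR1 had larger 5′ UTR values, such as 326 RPM in ribo-seq against 350.2 RPM in mRNA-seq for PSBP1. Exon values of these isoforms were lower than those of the first, as in PSBP1 with 1604 RPM for the second and 1912 RPM for the first isoform in ribo-seq, and 1437 and 1727 RPM in mRNA-seq. Their coding sequences were also shorter, at 660 against 792 bp for PSBP1, and a read can count for several isoforms. Coding reads of the first isoform can thus stand as 5′ UTR reads of the second, so these values do not show separate footprints in a 5′ UTR.

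**Figure D5:**
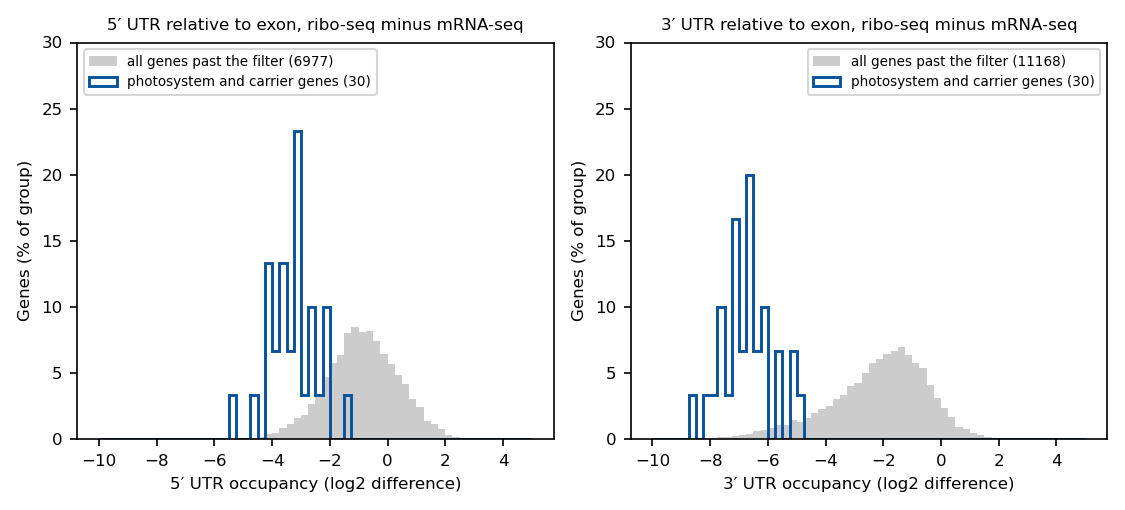
Percentage of genes (vertical axis) by UTR occupancy (horizontal axis, log2 difference) with the 5′ UTR at the left and the 3′ UTR at the right, for the 30 photosystem, carrier and ATP synthase genes (blue outline) and all genes past the filter (grey). The blue outlines lie at the low end, with medians of −3.20 at the left and −6.70 at the right, against −0.87 and −1.93 for all genes.

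By median ratio, related nuclear genes lay closer to the median of all genes than the 30 genes did. Not all of them belong to photosynthesis, as with the root-type ferredoxin gene FD3. Of 17 further subunits and carriers with exon values, 12 lay above the median, beside 50.0% of all genes, and their median ratio was −0.59. More than 2-fold above the median of all genes lay 5, beside 5.59% of all genes and 9 of the 30 genes. More than 2-fold below lay 0, beside 11.8% of all genes. Their median level in ribo-seq was 46.0 RPM, against 769 RPM for the 30 genes. FD3 (AT2G27510), the root-type ferredoxin, was highest, with 20.8 RPM in ribo-seq against 18.3 RPM in mRNA-seq (ratio 0.17). TROL (AT4G01050), the thylakoid protein that anchors FNR, was lowest, with 120.5 RPM in ribo-seq against 384 RPM in mRNA-seq (ratio −1.66). Of 12 assembly and repair factors, 8 lay above the median, 0 more than 2-fold above and 1 more than 2-fold below it, with a median ratio of −0.77. Their median level was 107 RPM in ribo-seq and their median coding length 1047 bp, against 558 bp for the 30 genes. The part of level and length in these differences was not tested. PSB28 (AT4G28660), a photosystem II assembly factor, was highest, with 137 RPM in ribo-seq against 151 RPM in mRNA-seq (ratio −0.15). ALB3 (AT2G28800), the insertase for thylakoid membrane proteins, was lowest, with 99.2 RPM in ribo-seq against 448 RPM in mRNA-seq (ratio −2.16).

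The 18 antenna genes (LHCA and LHCB), for the chlorophyll-binding proteins that surround both photosystems, had a median ratio of −1.12. Of these, 8 lay above the median of all genes (beside 50.0% of all genes), 2 more than 2-fold above (5.59%) and 5 more than 2-fold below it (11.8%). The highest was LHCB4.3 (AT2G40100), with 130.1 RPM in ribo-seq against 122 RPM in mRNA-seq, and the lowest LHCB1.2 (AT1G29910), with 35.4 RPM in ribo-seq against 228 RPM in mRNA-seq. Of the antenna genes, 8 shared 5% or more of their stretches of 30 bases with another gene and had a median of −2.12. The other 10 had −1.02. The ranges overlapped, at −2.65 to −0.06 for the 8 and −1.61 to 0.10 for the 10. The 28 genes of the set with less than 5% shared had a median of −0.06. How the assignment of reads with several map positions moved the antenna values was not tested. The 5 Rubisco small subunit and activase genes had a median ratio of −0.16, from RCA (−0.48) to RBCS3B (0.10), which lay within the range of the 30 genes. The small subunit genes also shared stretches of 30 bases with other genes, from 12.1% in RBCS1A to 69.4% in RBCS1B (ratio −0.03).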

How the data were processed

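MBP ribo-seq and MBP mRNA-seq libraries from WT seedlings (1 each) were analysed from the deposited tables of 5′ UTR, exon and 3′ UTR values per transcript isoform. Per the labels and the methods, the authors aligned reads with TopHat2 2.0 and assigned them to TAIR10 features with bedtools 2.23.0. Use of strand is not given in the sources used here. The authors left out reads with several map positions in mRNA-seq in general, and whether this covered these libraries is not given. The authors described polyA+ selection for mRNA-seq in general, and none for ribo-seq, so the libraries may differ in more than ribosome protection. The authors deposited RPM, reads scaled to the size of the library. The mRNA-seq exon column, named RPM by the authors too, summed to 1348200 since a read can count for several isoforms, and was treated as a signal.

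Low values were whole multiples of the worth of 1 read (0.0260 RPM in ribo-seq, 0.0149 RPM in mRNA-seq), which gave the depths. Values up to 1000 reads came out whole within 0.1 read, in 100.0% of cases in each library. A count of 0 allows 3 reads, 0.0780 RPM in ribo-seq against 0.0448 RPM in mRNA-seq. PCR reads are not independent molecules, so floors and intervals cover counting error only.

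Of several isoforms, that with the highest mean of both exon values stood for its gene. Ratios used a pseudocount of 1 RPM and a mean of at least 1 RPM, UTR occupancy a pseudocount of 0.5 RPM and a mean UTR value of at least 0.5 RPM. The pseudocount understates differences of low genes. The 30 genes and all gene lists were chosen with earlier results of these data known. All 30 genes are described, and of each other list the genes with the highest and the lowest ratio. Coding sequences came from RefSeq TAIR10.1, which held 25042 of 25224 gene IDs. Aligned copies were compared with Biopython 1.88. Software was scipy 1.17.1, pandas 2.3.3, numpy 2.4.6 and matplotlib 3.10.9 under Python 3.11.15. The ratio step was tested on simulated data. Alternatives covered the pseudocount, filter, isoform, scaling, UTR values and comparison genes, and a binomial test on recovered reads.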

Additional observations from a re-analysis of the deposited data

How the results depend on the processing

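No alternative turned the sign of a difference. Of the recomputed values, 65 stayed within their error or, for counts, within 1.5 times, while 31 moved further. A part of the 65 could not have moved, such as isoform choice for genes with a single isoform or scaling to the median gene. The tally is thus no measure of stability. The difference between the median ratio of the 30 genes and that of all genes (0.92) was 1.08 with a pseudocount of 0.1, 0.58 with 5, 0.52 without the filter, 1.03 with scaling to the nuclear exon sum, 0.84 with UTR values added, 0.60 beside genes of like coding length and 0.50 beside genes with a mean of at least 100 RPM. The count more than 2-fold above the median (9) was 19 with a pseudocount of 0.1 (beside 8.91% of all genes) and 17 with scaling to the nuclear exon sum (6.90%). It was 1 with a pseudocount of 5 (0.995%), without the filter (1.18%), beside genes of like coding length (2.43% of them) and beside genes with a mean of at least 100 RPM (2.27%), while the count below stayed at 0. An exact binomial test on recovered reads against the median gene was chosen after seeing the data, and it compares the libraries, not conditions. It takes the reads of 1 library per assay as replicates. All 30 genes already lay above the median by more than their counting error, so its outcome was fixed in advance and nothing is concluded from it. With UTR values added, the differences between copies were −0.50 for PSBO, 0.17 for PSBQ, 0.14 for PSAD, −0.067 for PSAH, −0.25 for PETE, −0.16 for FD and −0.58 for FNR. Median occupancy with a pseudocount of 0.1 was −3.57 (5′ UTR) and −7.64 (3′ UTR). The exon share in ribo-seq was 98.1% with isoforms summed, and in mRNA-seq it was 82.5% with isoform 1, 82.2% with isoforms summed and 81.9% without PSBO1, the gene with the highest value. The highest photosystem I subunit exceeded the lowest 3.4-fold in ribo-seq and 2.11-fold in mRNA-seq with isoforms summed, and 10.2-fold in ribo-seq and 10.4-fold in mRNA-seq with each gene on its own, where the order of the assays turned round. Causes were not tested beyond what each alternative changes. No paired analysis was possible because there was 1 library per assay, which also leaves the spread between samples unknown.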
